A study of Magallana hongkongensis with 2 samples.

Results

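Dyneins are motor proteins that walk along microtubules, and 106 of the 21226 assembled transcripts (unigenes) measured in gill tissue of an estuarine oyster, Crassostrea hongkongensis (Magallana hongkongensis), carry the word dynein in their description. Members were found by that word alone, in the text before the species of the best protein match. They fall into 91 axonemal chains (85 heavy, 2 intermediate and 4 light), 14 cytoplasmic chains (7 heavy and 7 others) and 1 factor that helps to assemble dynein. Heavy chains without the word cytoplasmic were counted as axonemal, and 4 of them name neither an arm nor the axoneme. Of the 106 unigenes, 92 were matched to proteins of the Pacific oyster, Crassostrea gigas, and 14 to other animals. No member was named for a dynein regulatory complex or a docking complex. All 8 members with under 20 reads over both libraries are pieces of axonemal heavy chains. Unigenes can be pieces of 1 gene or near-identical copies, and their descriptions are the only names used.

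Axonemal dyneins form the outer and inner arms along the microtubule doublets of motile cilia, where their heavy chains hydrolyse ATP and bend the cilium. In a bivalve gill, motile cilia drive the water current and carry food. Cytoplasmic dynein 1 carries cargo toward the minus end of microtubules in all animal cells, and cytoplasmic dynein 2 returns intraflagellar transport trains from the ciliary tip. Axonemal arms are put together in the cytoplasm by dedicated assembly factors working with chaperones, before they enter the cilium.

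The library labelled heat shock came from the pooled gill of 10 wild, diploid, adult oysters that spent 1 h in seawater at 37 °C before a return to 23 °C. The library labelled control came from wild, diploid adults held at 23 °C throughout, and the labels do not say how many were pooled. All oysters were acclimated for 2 weeks and fed microalgae, their sex was not determined, and polyadenylated RNA was sequenced. With 1 library per group there are no replicates: every 95% interval is an exact one for counting error, does not cover differences between pools of oysters, and compares these 2 libraries rather than the treatments. The intervals cover counting error only and treat reads as independent. Reads without molecular identifiers are not independent molecules, so the intervals can be too narrow.

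The library labelled heat shock held 4.17 M uniquely mapped reads (M, 1000000) over 20751 listed unigenes, and the library labelled control held 3.93 M over 20824. Heat shock protein 90, a chaperone, had 3478 reads in the library labelled heat shock and 54239 in the library labelled control (Unigene0015010), a direction that goes against the labels. Each library is therefore named by its label only. A ratio is reads per M reads (CPM) in the library labelled heat shock over those in the library labelled control. The median ratio of the 17364 unigenes with at least 20 reads was 1.12, a log2 value of 0.17, and came to a log2 value of 0.00 when the libraries were scaled with edgeR's TMM factors. In pooled tissue, fewer cells of a type and less RNA per cell cannot be told apart.

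Axonemal chains were more abundant in the library labelled heat shock beyond counting error, and the sum of cytoplasmic chains was close to equal with library totals and lower with TMM factors. The 91 axonemal unigenes together took 55677 reads in the library labelled heat shock and 42690 in the library labelled control, or 1.33% and 1.09% of all reads, a ratio of 1.23 (95% interval 1.21 to 1.24). The 14 cytoplasmic unigenes took 8038 reads in the library labelled heat shock and 7587 in the library labelled control, a ratio of 0.997 (0.966 to 1.03). Axonemal reads were 6.93 times the cytoplasmic reads in the library labelled heat shock and 5.63 times in the library labelled control, and the ratio of these, which does not depend on how the libraries are scaled, was 1.23 (1.19 to 1.27). It was 1.23 (1.16 to 1.30) over heavy chains alone, and 1.16 (1.11 to 1.21) without the most abundant cytoplasmic unigene. With TMM factors the axonemal sum kept its direction at 1.09 (1.08 to 1.11), and the cytoplasmic sum came to 0.889 (0.861 to 0.917).

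Few single dynein unigenes differed by much. Of the 106 dynein unigenes, 98 had at least 20 reads and were tested for a call, which needs a ratio of at least 2 either way and an interval that leaves out 1. Only 2 were called higher, where 3.97% of all tested unigenes were, and 0 were called lower, against 3.25%; either way, 7.22% of all tested unigenes were called. With library totals and no minimum ratio, 46 of 83 tested axonemal unigenes had an interval wholly above 1 (55.4%, where 23.0% of all tested unigenes did). In 1 it lay wholly below 1 (8.91% of all). The shares of all unigenes are over all depths, and axonemal unigenes were read more deeply. Of the 83, 15 had 2000 or more reads over both libraries, beside 578 of all 17364. The ratio itself was above 1 in 73 of the 83, where it was in 66.1% of all tested unigenes. Of the 14 cytoplasmic unigenes, with library totals, 1 had an interval above 1, 1 below 1, and 12 held 1. These counts depend on the scaling. TMM factors multiply every ratio by 0.892, so that in both groups fewer intervals lie above 1 and more lie below 1. The median log2 ratio was 0.34 for axonemal chains and 0.03 for cytoplasmic chains, beside 0.17 for all unigenes. In all, 60 of 83 axonemal and 4 of 14 cytoplasmic unigenes lay above the median of all unigenes. Unigenes of 1 chain may share a gene, so these counts are not of independent genes.

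**Figure D1:**
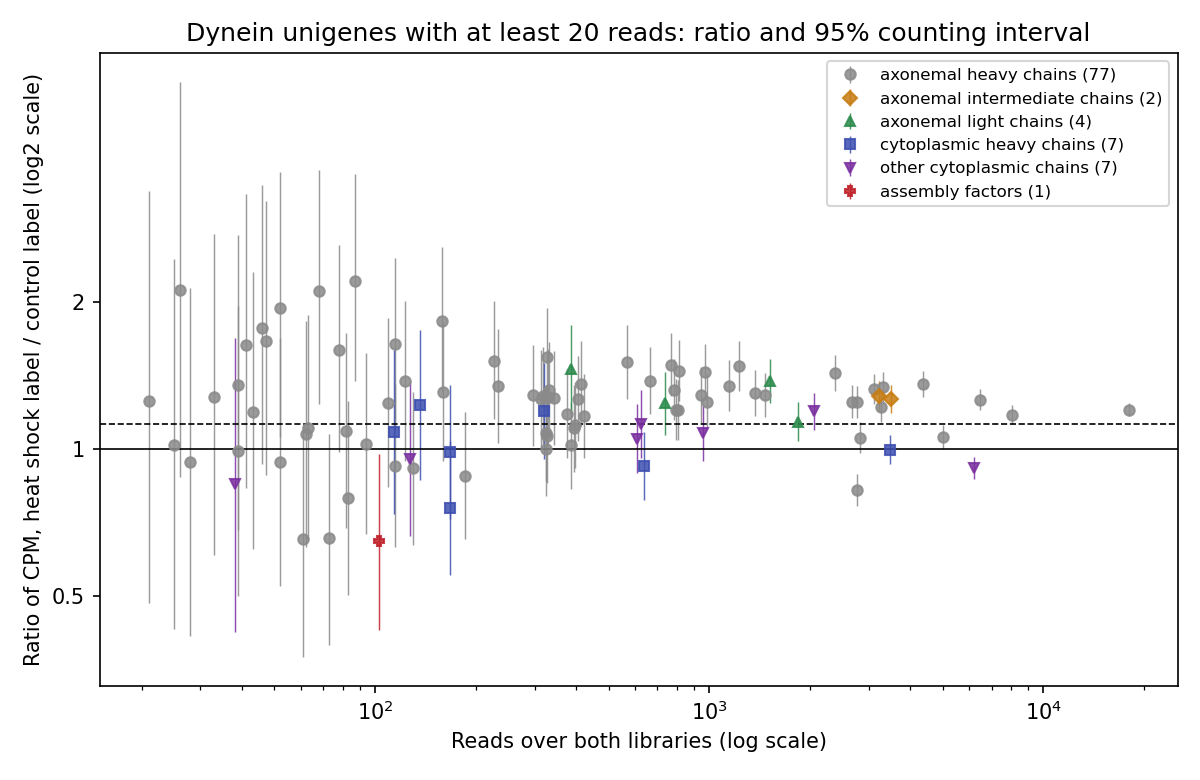
Ratio of CPM, library labelled heat shock over library labelled control (vertical axis, log2 scale), against reads over both libraries (horizontal axis, log scale) for the 98 dynein unigenes with at least 20 reads; bars are 95% intervals for counting error, the solid line is 1 and the dashed line is the median of all tested unigenes, 1.12. Axonemal chains with many reads sit mostly above the dashed line, cytoplasmic heavy chains (blue squares) sit around 1, and the well-read axonemal point below 1 is a heavy chain 6 unigene at 0.823.

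The plot of ratio against reads shows the spread narrowing with depth around a value above 1 for the axonemal chains. Among the 54 axonemal heavy-chain unigenes with 100 or more reads, 37 had an interval above 1 and 1 below. Among the 23 with fewer, 3 did and 0 lay below, and both called unigenes are in this group. These counts use library totals. Intervals narrow with more reads, and the share over all unigenes at the same depths was not counted. By length, over all tested unigenes of 8000 bases or more the median log2 ratio was 0.18 (46 unigenes), and over the 5 axonemal ones among them it was 0.29.

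Heavy chains, the ATPase subunits, include 4 unigenes of at least 10000 bases, long enough to hold most of a heavy-chain transcript; they were chosen by length, after the lengths were seen. The longest axonemal one, heavy chain 10 (Unigene0013482, 14454 bases), part of an inner-arm motor in vertebrates, had 2575 reads in the library labelled heat shock and 1787 in the library labelled control. Its ratio was 1.36 (1.28 to 1.44). The ciliary beta chain (Unigene0013486, 13706 bases), a motor of the outer arm, had 10086 reads in the library labelled heat shock and 7890 in the library labelled control, the most of any dynein unigene, a ratio of 1.20 (1.17 to 1.24). Heavy chain 7 (Unigene0032203, 10675 bases), an inner-arm motor, had 3691 reads in the library labelled heat shock and 2756 in the library labelled control, a ratio of 1.26 (1.20 to 1.32). The heavy chain of cytoplasmic dynein 1 (Unigene0004988, 14008 bases), the motor subunit of cargo transport, had 1788 reads in the library labelled heat shock and 1688 in the library labelled control, a ratio of 0.996 (0.932 to 1.07). The intervals of the 3 axonemal heavy chains lay above that of the cytoplasmic one.

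Outer-arm heavy chains, which set much of the beat frequency, comprised 24 unigenes by name. Together they took 25049 reads in the library labelled heat shock and 19605 in the library labelled control, a ratio of 1.20 (1.18 to 1.22). The 13 unigenes of the ciliary beta chain had a summed ratio of 1.24 (1.21 to 1.28), and their lengths add to 31577 bases, beside 13706 for the longest, which is more than 1 transcript of that length. Of these 13, 12 had a ratio above 1 and the other, Unigene0005146 with 38 reads in the library labelled heat shock and 45 in the library labelled control, had an interval that held 1 (0.502 to 1.25). The one called higher is a short unigene of 728 bases (Unigene0025887), with 61 reads in the library labelled heat shock and 26 in the library labelled control, a ratio of 2.21 (1.37 to 3.64) that came to 1.97 with TMM factors. Other beta-chain unigenes with high ratios were Unigene0030930, with 35 reads in the library labelled heat shock and 17 in the library labelled control, and Unigene0018352, with 105 reads in the library labelled heat shock and 54 in the library labelled control.

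The 7 unigenes of heavy chain 5, an outer-arm motor whose loss in humans causes primary ciliary dyskinesia, had a summed ratio of 1.16 (1.13 to 1.19). Their single ratios ran from 1.05 to 1.49, and their sum came to 1.03 (1.004 to 1.06) with TMM factors. The most read of them, heavy chain 5-like (Unigene0013537), had 4473 reads in the library labelled heat shock and 3579 in the library labelled control, a ratio of 1.18 (1.12 to 1.23). The next most read, Unigene0006401, had 2644 reads in the library labelled heat shock and 2352 in the library labelled control. Its ratio of 1.06 (0.9999 to 1.12) held 1, and turned to 0.943 with TMM factors, with an interval below 1. A unigene of 8524 bases (Unigene0031989) had 1496 reads in the library labelled heat shock and 1334 in the library labelled control, its interval of 0.979 to 1.14 held 1, and its ratio of 1.05 turned to 0.941 with TMM factors. The alpha chain of the outer arm (Unigene0010351) had 190 reads in the library labelled heat shock and 140 in the library labelled control, a ratio of 1.28 (1.02 to 1.60). A beta chain named for the flagellar outer arm is not in the plot of summed ratios. Its 3 unigenes summed to 118 reads in the library labelled heat shock and 89 in the library labelled control. Their ratio of 1.25 (0.939 to 1.66) had an interval that held 1.

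Inner-arm heavy chains, which shape the bend of the cilium, comprised 57 unigenes, of which 50 were tested. They took 23666 reads in the library labelled heat shock and 17861 in the library labelled control, a ratio of 1.25 (1.22 to 1.27). By chain, the summed ratio was 1.37 (1.26 to 1.503) for the dynein-1-beta heavy chain and 1.35 (1.28 to 1.44) for heavy chain 10. It was 1.31 (1.25 to 1.37) for heavy chain 1, 1.29 (1.22 to 1.37) for heavy chain 2 and 1.29 (1.25 to 1.34) for heavy chain 7. It was 1.18 (1.11 to 1.25) for heavy chain 3, of whose 11 unigenes only 6 passed the minimum of reads. The sum of heavy chain 3 came to 1.05 with TMM factors, with an interval of 0.986 to 1.12 that held 1. The split into outer and inner arms was made from the names after the values were seen, and the ratios are given as a description. The one called inner-arm unigene is a piece of heavy chain 2 of 854 bases (Unigene0024226), with 47 reads in the library labelled heat shock and 21 in the library labelled control, a ratio of 2.11 (1.23 to 3.71) that came to 1.88 with TMM factors. Another heavy chain 2 unigene, Unigene0008551, had 73 reads in the library labelled heat shock and 42 in the library labelled control. The smallest ratio with at least 50 reads among inner-arm heavy chains was that of a heavy chain 1 unigene (Unigene0022575), with 30 reads in the library labelled heat shock and 43 in the library labelled control, and its interval of 0.397 to 1.07 held 1. The 4 heavy-chain unigenes whose names give no arm include Unigene0030270, described as heavy chain-like, with 25 reads in the library labelled heat shock and 36 in the library labelled control and an interval of 0.376 to 1.12.

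Heavy chain 6, a motor of the inner arm, was, with library totals, the one axonemal chain of the 9 in the plot of summed ratios whose sum did not lie above 1. Its 10 unigenes summed to 2736 reads in the library labelled heat shock and 2646 in the library labelled control, a ratio of 0.973 (0.922 to 1.03). Scaled with TMM factors, this sum came to 0.868 (0.822 to 0.916), wholly below 1. The most read of them, Unigene0013969 (4149 bases), had 1293 reads in the library labelled heat shock and 1478 in the library labelled control, a ratio of 0.823 (0.763 to 0.887). It is the axonemal unigene whose interval lay wholly below 1. The other 9 heavy chain 6 unigenes summed to 1443 reads in the library labelled heat shock and 1168 in the library labelled control, a ratio of 1.16 (1.08 to 1.26). Their ratio came to 1.04 with TMM factors, with an interval of 0.959 to 1.12 that held 1. Among the 9, the one with an interval above 1 was Unigene0015675, with 562 reads in the library labelled heat shock and 423 in the library labelled control. Unigenes described here that were not taken by the stated rule for named genes, Unigene0013969 among them, were chosen after their values were seen.

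Intermediate and light chains of the axoneme were also higher in the library labelled heat shock. Intermediate chains anchor the outer arm to the doublet, and both were higher in the library labelled heat shock by their intervals. Intermediate chain 2 (Unigene0008916) had 1861 reads in the library labelled heat shock and 1364 in the library labelled control, a ratio of 1.28 (1.20 to 1.38). Intermediate chain 3 (Unigene0015796) had 2001 reads in the library labelled heat shock and 1489 in the library labelled control, a ratio of 1.26 (1.18 to 1.35). The 4 unigenes classed as axonemal light chains by name all had intervals above 1 with library totals (23.0% of all tested unigenes did). They include 3 light chains, small subunits of the arms, and 1 longer transcript named for a light chain domain. Light chain p33, with a match in abalone (Unigene0022295), had 1007 reads in the library labelled heat shock and 833 in the library labelled control, a ratio of 1.14 (1.04 to 1.25) that came to 1.01 with TMM factors. Light chain 1 (Unigene0023280), which binds an outer-arm motor domain in green algae, had 420 reads in the library labelled heat shock and 319 in the library labelled control, a ratio of 1.24 (1.07 to 1.44). With TMM factors the ratio of light chain 1 came to 1.10, and the intervals of p33 and light chain 1 then held 1. Light chain 4 (Unigene0024122) had 235 reads in the library labelled heat shock and 152 in the library labelled control, a ratio of 1.45 (1.18 to 1.80). The light chain domain-containing protein 1 (Unigene0014137, 3809 bases) had 903 reads in the library labelled heat shock and 617 in the library labelled control, a ratio of 1.38 (1.24 to 1.53). Without p33, the summed ratio of the light chains was 1.35, in place of 1.26 with it.

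**Figure D2:**
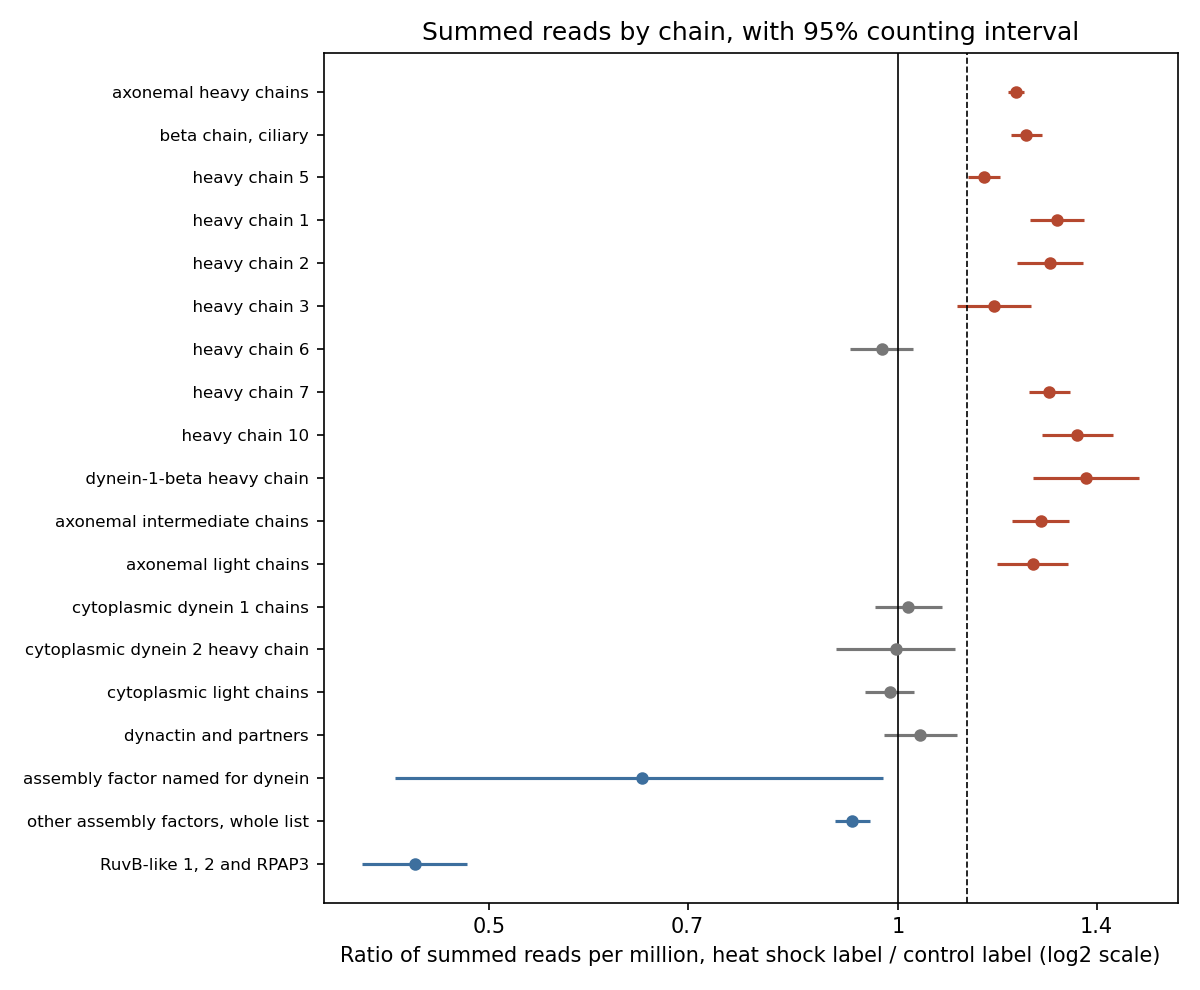
Ratio of summed CPM, library labelled heat shock over library labelled control (horizontal axis, log2 scale), for each dynein chain or list (vertical axis), with 95% intervals for counting error; red intervals lie above 1, blue ones below 1 and grey ones hold 1, and the dashed line is the median of all tested unigenes, 1.12. Axonemal chains lie between 1.16 and 1.37 apart from heavy chain 6 at 0.973, cytoplasmic chains lie close to 1, and assembly factors lie below 1.

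The plot of summed ratios sets the chains beside each other. Cytoplasmic dynein 1, by its heavy, intermediate and light intermediate chains, took 2514 reads in the library labelled heat shock and 2324 in the library labelled control, a ratio of 1.02 (0.961 to 1.08) that turned to 0.908 (0.858 to 0.961) with TMM factors. Its intermediate chain 2 (Unigene0009227), which binds dynactin, had 341 reads in the library labelled heat shock and 285 in the library labelled control. The light intermediate chain 1 (Unigene0013983), which links the motor to cargo adaptors, had 321 reads in the library labelled heat shock and 288 in the library labelled control, a ratio of 1.05 that turned to 0.935 with TMM factors. Both intervals held 1.

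Cytoplasmic dynein 2 works inside the cilium, and the level of its heavy chain relative to the other library depended on the scaling. Its 6 unigenes summed to 793 reads in the library labelled heat shock and 749 in the library labelled control, a ratio of 0.996 (0.900 to 1.10) with library totals, where all 6 intervals held 1, and of 0.888 (0.803 to 0.983) with TMM factors. They ranged from 0.759 for Unigene0024472, with 75 reads in the library labelled heat shock and 93 in the library labelled control, to 1.23 for a unigene of 1169 bases (Unigene0011750). The most read, Unigene0008269, had 315 reads in the library labelled heat shock and 321 in the library labelled control, and Unigene0014155 had 179 reads in the library labelled heat shock and 141 in the library labelled control. The intermediate chains of dynein 2 are described as WD repeat-containing proteins 34 and 60 and so are no members. Their 4 unigenes, looked up after the values were seen, had ratios from 1.07, which turned to 0.952 with TMM factors, to 2.35. Of the 4, 1 was called higher, where 3.97% of all tested unigenes were. It is Unigene0027338, with 40 reads in the library labelled heat shock and 16 in the library labelled control.

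The light chains listed with cytoplasmic dynein differed among themselves. Light chains of the LC8, Tctex and roadblock kinds can serve different dynein motors. The 4 unigenes of these kinds held 4731 of the 8038 cytoplasmic reads in the library labelled heat shock. In the library labelled control they held 4514 of 7587. Dynein light chain 2, cytoplasmic (Unigene0025857), of the LC8 kind, which also binds proteins outside dynein, had 3050 reads in the library labelled heat shock and 3139 in the library labelled control, a ratio of 0.914 (0.869 to 0.961). Light chain Tctex-type 1 (Unigene0021620), which also occurs in axonemal arms of green algae, had 1153 reads in the library labelled heat shock and 909 in the library labelled control, a ratio of 1.19 (1.09 to 1.30). Light chain roadblock-type 2 (Unigene0007773) had 510 reads in the library labelled heat shock and 446 in the library labelled control, its interval of 0.945 to 1.22 held 1, and its ratio of 1.08 turned to 0.959 with TMM factors. The other roadblock unigene (Unigene0020666) had 18 reads in the library labelled heat shock and 20 in the library labelled control. With the LC8 unigene left out, the cytoplasmic ratio was 1.05 (1.01 to 1.10), and with TMM factors it then turned to 0.941.

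Levels per length spanned a wide range among the chains. The LC8 light chain was the highest, at 997 RPKM (reads per kilobase of unigene and M reads) in the library labelled heat shock and 1091 RPKM in the library labelled control. Next came the roadblock light chain, with 381 RPKM in the library labelled heat shock and 354 in the library labelled control, and the Tctex light chain, with 249.6 RPKM in the library labelled heat shock and 209 in the library labelled control. Axonemal light chain p33 had 233 RPKM in the library labelled heat shock and 205 in the library labelled control. Axonemal intermediate chain 3 had 202.4 RPKM in the library labelled heat shock and 160.1 in the library labelled control, and intermediate chain 2 had 187 RPKM in the library labelled heat shock and 145 in the library labelled control. The ciliary beta chain, the highest heavy chain, had 176 RPKM in the library labelled heat shock and 147 in the library labelled control. The cytoplasmic dynein 1 heavy chain had 30.6 RPKM in the library labelled heat shock and 30.7 in the library labelled control, below all 3 axonemal heavy chains of at least 10000 bases, the lowest of which was heavy chain 10 at 42.7 RPKM in the library labelled heat shock and 31.5 in the library labelled control. The order of these chains was the same in both libraries except that intermediate chain 2 lay above the ciliary beta chain in the library labelled heat shock and just below it in the library labelled control.

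**Figure D3:**
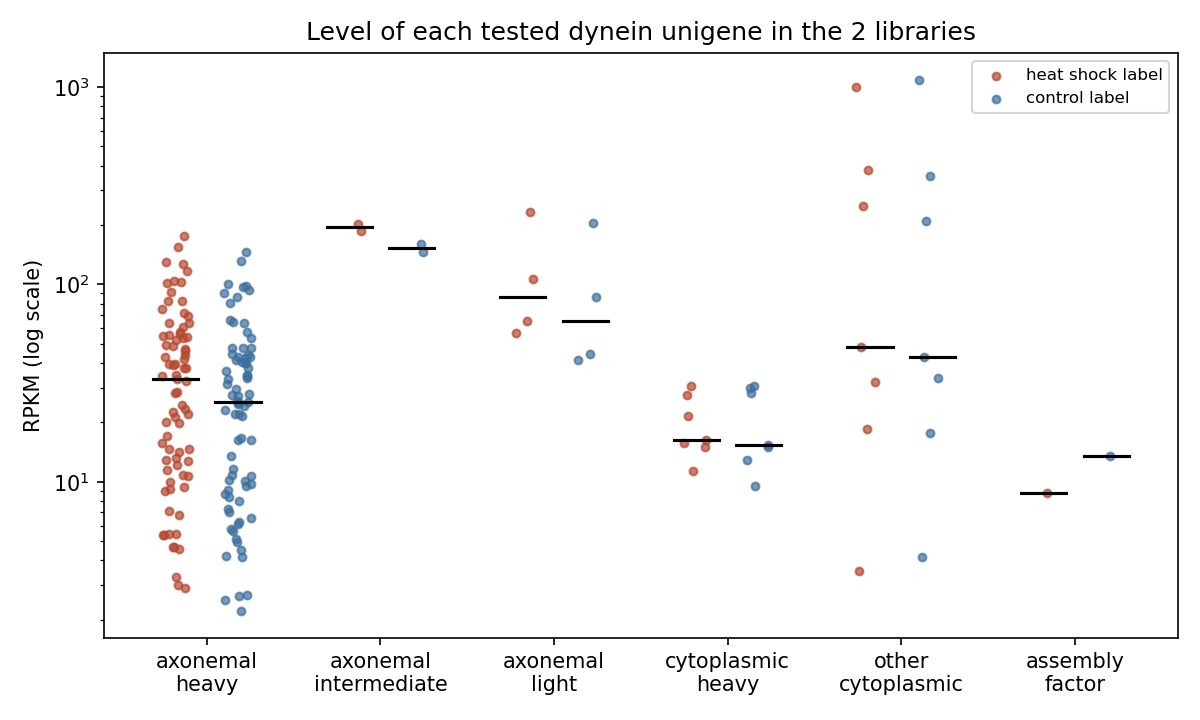
Level in RPKM (vertical axis, log scale) of each dynein unigene with at least 20 reads, by class (horizontal axis), in the library labelled heat shock (red, left) and the library labelled control (blue, right); black lines are medians over unigenes. Axonemal medians are higher on the left in all 3 axonemal classes, the highest point of all is the LC8 light chain at 997 and 1091 RPKM, and the assembly factor is lower on the left.

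Among assembly factors, several were lower in the library labelled heat shock. The member described as dynein assembly factor with WDR repeat domains 1 (Unigene0021234), which in green algae helps outer arms into the flagellum, had 42 reads in the library labelled heat shock and 61 in the library labelled control, a ratio of 0.648 (0.426 to 0.975). Assembly factors that are not named for dynein were read from a list of words: of 29 unigenes, 26 were tested, 2 were called lower, where 3.25% of all tested unigenes were, and 1 higher, where 3.97% were. Their summed ratio was 0.926 (0.899 to 0.953). This list mixes roles. It holds factors that fold the chains in the cytoplasm, and proteins that dock or space the arms on the doublets or are axonemal otherwise. It also holds 2 unigenes of KIAA0319, which the word dyslexia caught although KIAA0319 is no assembly factor. The split below was made after the values were seen and is a description.

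Among the factors that act in the cytoplasm, kintoun, a partner of HSP70 in arm assembly, had the largest difference. Its main unigene (Unigene0009003) had 519 reads in the library labelled heat shock and 1849 in the library labelled control, a ratio of 0.264 (0.239 to 0.291), and its other unigene (Unigene0009004) had 122 reads in the library labelled heat shock and 177 in the library labelled control, a ratio of 0.648 (0.511 to 0.821). Leucine-rich repeat-containing protein 50 (Unigene0015571), an assembly factor lost in human ciliary dyskinesia, had 326 reads in the library labelled heat shock and 787 in the library labelled control, a ratio of 0.390 (0.341 to 0.444). These 2 were the called ones, and both were called lower. HEAT repeat-containing protein 2 (Unigene0015076), with 146 reads in the library labelled heat shock and 214 in the library labelled control, had a ratio of 0.642 (0.516 to 0.796). The dyslexia susceptibility 1 candidate gene 1 homolog (Unigene0010073), a chaperone-binding assembly factor, had 111 reads in the library labelled heat shock and 161 in the library labelled control, a ratio of 0.649 (0.505 to 0.831). Not all of these factors were lower: of the 14 unigenes, 5 had an interval below 1 (8.91% of all tested unigenes did), 1 had it above 1 (23.0% of all) and 8 held 1. The one above 1 is leucine-rich repeat-containing protein 6 (Unigene0018749), with a ratio of 1.51 (1.10 to 2.10). The 14 summed to 1898 reads in the library labelled heat shock and 3796 in the library labelled control, a ratio of 0.470. It was 0.666 without the main kintoun unigene and 0.854 (0.785 to 0.929) without both called unigenes, and the median ratio of the 14 was 0.820.

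**Figure D4:**
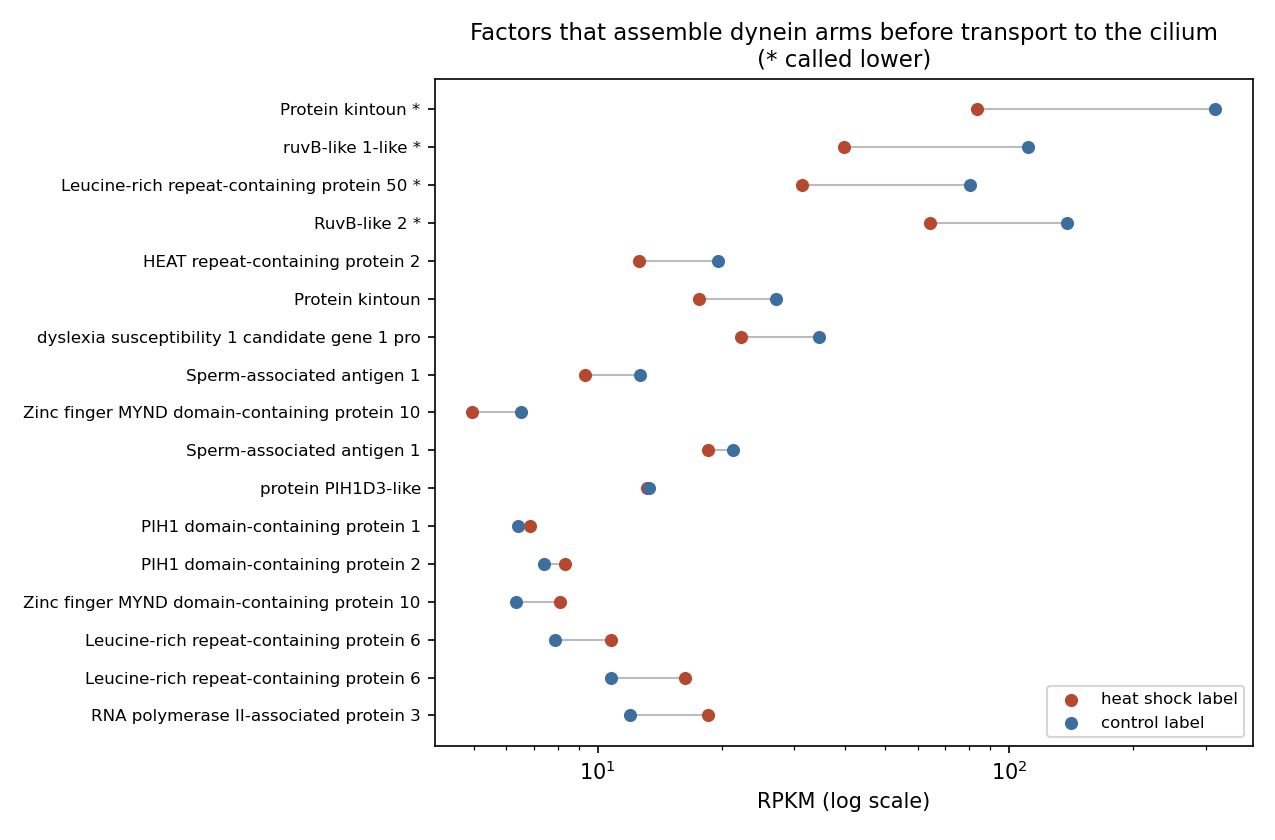
Level in RPKM (horizontal axis, log scale) of each of 14 unigenes of cytoplasmic assembly factors and 3 of chaperone partners (vertical axis, ordered by ratio with the lowest at the top) in the library labelled heat shock (red) and the library labelled control (blue); stars mark unigenes called lower. The 4 starred unigenes are kintoun, RuvB-like 1 and 2 and leucine-rich repeat-containing protein 50, and the remaining pairs lie closer together on both sides.

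The plot of assembly factor levels also holds 3 chaperone partners, of which 2 were lower. RuvB-like 1 and RuvB-like 2 are ATPases of a chaperone complex that helps to build dynein arms and also other large complexes. RuvB-like 1 (Unigene0018093) had 274 reads in the library labelled heat shock and 719 in the library labelled control, a ratio of 0.358 (0.311 to 0.413). RuvB-like 2 (Unigene0018756) had 405 reads in the library labelled heat shock and 823 in the library labelled control, a ratio of 0.463 (0.410 to 0.522). Both were called lower, where 3.25% of all tested unigenes were. RNA polymerase II-associated protein 3 (Unigene0025036), another subunit, had 61 reads in the library labelled heat shock and 37 in the library labelled control, a ratio of 1.55 (1.01 to 2.40). Heat shock protein 90, the partner of this complex, was lower in the same library by the reads given above; its part in these differences was not tested.

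The factors that dock or space the arms, or are axonemal otherwise, had 10 tested unigenes. Of these, 5 had an interval above 1 (23.0% of all tested unigenes did), 0 below 1 (8.91% of all) and 5 held 1. CCDC151 (Unigene0004415), a coiled-coil protein that is part of the outer-arm docking complex, had 2552 reads in the library labelled heat shock and 1877 in the library labelled control, a ratio of 1.28 (1.20 to 1.36). Tetratricopeptide repeat protein 25 (Unigene0009278), which also docks outer arms, had 1639 reads in the library labelled heat shock and 1263 in the library labelled control, a ratio of 1.22 (1.13 to 1.31). CCDC40 (Unigene0014440), a coiled-coil protein which with its partner sets the spacing of inner arms, had 1389 reads in the library labelled heat shock and 967 in the library labelled control, a ratio of 1.35 (1.24 to 1.47). CCDC39, the partner of CCDC40, had a ratio of 1.33 in Unigene0004235, 1.13 (0.932 to 1.37) in Unigene0004236 and 0.967 (0.689 to 1.36) in Unigene0032040, and the intervals of the last 2 held 1. Other unigenes of tetratricopeptide repeat protein 25 had few reads. Unigene0025778 was called higher (3.97% of all tested unigenes were) with 34 reads in the library labelled heat shock and 11 in the library labelled control. Unigene0010024 had 0 reads in the library labelled heat shock and 18 in the library labelled control. Unigene0010025 had 1 read in the library labelled heat shock and 9 in the library labelled control. Both were under the minimum of 20 reads and were not tested, and both had intervals below 1.

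Axonemal intermediate chains without the word dynein in their description were also higher in the library labelled heat shock. WD repeat-containing proteins 63 and 78 are intermediate chains of inner arms in vertebrates, and their 4 unigenes all had intervals above 1 (23.0% of all tested unigenes did). The longest (Unigene0014603, protein 63) had 1244 reads in the library labelled heat shock and 858 in the library labelled control, a ratio of 1.36 (1.25 to 1.49). A short unigene of protein 63 (Unigene0019970) was called higher, where 3.97% of all tested unigenes were. It had 57 reads in the library labelled heat shock and 18 in the library labelled control. Partners of cytoplasmic dynein were read from a list of words for dynactin, lissencephaly-1 and adaptor proteins. Of their 11 tested unigenes 0 were called, where 7.22% of all tested unigenes were called either way. Their summed ratio was 1.04 (0.976 to 1.11), which turned to 0.927 with TMM factors. Lissencephaly-1 (Unigene0013882), which holds dynein on its track, had 737 reads in the library labelled heat shock and 699 in the library labelled control. Dynactin subunit 1 (Unigene0004590) had 418 reads in the library labelled heat shock and 359 in the library labelled control, a ratio of 1.10 that turned to 0.977 with TMM factors.

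Markers of cell types were read beside these results, since axonemes also occur in sperm. Markers of ciliated gill epithelium (radial spoke proteins, tektins, hydin and intraflagellar transport proteins) took 0.659% of reads in the library labelled heat shock and 0.548% in the library labelled control, a ratio of 1.20 (1.18 to 1.23), with 0 of 33 tested unigenes called higher and 1 lower, beside 3.97% and 3.25% of all tested unigenes. The sperm list as first written held 778 unigenes with a summed ratio of 1.09. Sperm markers, once the word bindin was left out because it caught every description with binding, took 0.196% of reads in the library labelled heat shock and 0.166% in the library labelled control, a ratio of 1.18 (1.14 to 1.22), with 1 of 24 called higher and 0 lower, against the same shares. Which unigenes of the sperm list belong to sperm alone was not sorted, and 0 unigenes were described as protamine. The markers of ciliated gill epithelium are not particular to gill either, since sperm hold axonemes. Markers of oocytes, muscle, haemocytes, digestive gland and nerve had summed ratios from 1.07 to 1.23. Their part in the dynein ratios was not tested.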

How the data were processed

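The deposited counts are whole numbers of uniquely mapped reads per unigene, per the file headers, and sum to the library totals printed there. The authors' deposited RPKM equalled count, length and total combined, and was used for levels only. The deposited coverage, in percent of length, was not tested; lengths are in bases. The tools on record are CASAVA 1.4 and cutadapt 1.8.1, per the submitters' processing notes; the aligner and the assembler are not named there. Unigenes absent from 1 file were set to 0. Counts were scaled to library totals (CPM), and intervals of ratios were exact conditional binomial ones (scipy 1.17.1). Log2 ratios used a prior count of 0.5. TMM factors came from edgeR 4.0.16 and median-of-ratios factors from DESeq2 1.42.0, with neither tool's test run. All 21226 unigenes were treated alike; the rule for calls was checked on simulated counts. Classes followed words of the description. Members, lists and rules were chosen with earlier results of these data known. Named members are the 3 most read of each class, all called ones and, with at least 50 reads, the 5 highest and 5 lowest ratios. Reads shared by near-identical heavy chains are not among unique reads. No sequences were printed because no file here holds them.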

Additional observations from a re-analysis of the deposited data

How the results depend on the processing

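The count of 2 dynein unigenes called higher was 0 with TMM factors, with median-of-ratios factors, with at least 100 reads and with a ratio of at least 4, was 1 with a stricter interval, and was 8 with a ratio of at least 1.5, where 1 was called lower. Without a minimum of reads it stayed at 2. Over all unigenes, 690 were called higher and 564 lower with library totals, against 406 and 759 with TMM factors. With TMM and median-of-ratios factors, summed ratios were 1.09 and 1.09 for axonemal heavy chains, 1.14 and 1.13 for axonemal intermediate chains, 1.12 and 1.12 for axonemal light chains, 0.889 and 0.887 for cytoplasmic heavy chains, and 0.889 and 0.887 for other cytoplasmic chains. Median log2 ratios in the same order were 0.17 and 0.17, 0.18 and 0.18, 0.22 and 0.22, -0.17 and -0.17, and, for other cytoplasmic chains, -0.10 and -0.10, a change of sign from 0.07. These shifts follow from the scaling itself. Without its most read member, the summed ratio of axonemal light chains was 1.35 and that of other cytoplasmic chains 1.13, and the axonemal over cytoplasmic ratio without the most read member of each class was 1.13 (1.07 to 1.19); without the LC8 light chain alone it was 1.16. The other alternatives for class sums, medians and that ratio stayed within the counting interval. No paired analysis was possible because each group has 1 library, so no library could be left out either. Depth limits what can be seen: of axonemal heavy chains with 20 to 99 reads, 3 of 23 intervals lay above 1, against 37 of 54 with 100 or more.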

Other observations

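Other microtubule genes of the gill had summed ratios above 1 with library totals, where the median ratio of all tested unigenes was 1.12. Kinesins, the motors that walk toward the plus end, had 2 of 84 tested unigenes called higher and 0 lower, beside 3.97% and 3.25% of all unigenes tested. Their summed ratio was 1.17 (95% interval 1.14 to 1.20), and came to 1.04 (1.02 to 1.07) with TMM factors. Their median log2 ratio of 0.16 lay near the 0.17 of all tested unigenes. An interval above 1 was seen in 25% of them, where 23.0% of all tested unigenes had one. The 2 calls are both unigenes of kinesin light chain 3, Unigene0001362 with 48 reads in the library labelled heat shock and 17 in the library labelled control, and Unigene0001361 with 34 reads in the library labelled heat shock and 11 in the library labelled control. The kinesin KIF9-like (Unigene0014678), which is found on the central pair of motile cilia, had 1462 reads in the library labelled heat shock and 1012 in the library labelled control, a ratio of 1.36 (1.25 to 1.47). Kinesin-related protein 1 (Unigene0006476) had a ratio of 1.15 (1.07 to 1.23).

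Alpha and beta tubulins, the track of these motors, had 1 of 10 tested unigenes called higher (3.97% of all). It is a beta chain (Unigene0025398) with 335 reads in the library labelled heat shock and 150 in the library labelled control. The summed ratio of tubulins was 1.31 (1.30 to 1.32), and 1.17 (1.16 to 1.18) with TMM factors. The most read, alpha-1A (Unigene0018155), had 72263 reads in the library labelled heat shock and 56092 in the library labelled control. Its ratio of 1.21 (1.20 to 1.23) came to 1.08 with TMM factors. The most read beta tubulin chain by this list (Unigene0019083) had 35791 reads in the library labelled heat shock and 21364 in the library labelled control, a ratio of 1.58 (1.55 to 1.60). Other parts of the axoneme had a summed ratio of 1.21 (1.19 to 1.23), with 0 of 56 called higher (3.97% of all) and 1 lower (3.25% of all). That one, EF-hand domain-containing family member A2 (Unigene0013695), with 28 reads in the library labelled heat shock and 115 in the library labelled control, was caught by the words of the list and is related to a mitochondrial calcium sensor rather than to the axoneme. Intraflagellar transport proteins had a summed ratio of 1.14 (1.09 to 1.19), which came to 1.02 with TMM factors, and 1 of 20 was called lower (3.25% of all), a unigene of transport protein 74 (Unigene0016023) with 47 reads in the library labelled heat shock and 102 in the library labelled control. The other unigene of that protein (Unigene0017130) had 534 reads in the library labelled heat shock and 424 in the library labelled control.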
